A study of Mus musculus with 375 samples.

Results

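The 10 transcription factors described here govern gene programmes of the growing heart muscle cell, and their transcripts were counted in single cardiomyocytes of pressure-overloaded mouse hearts. The members were chosen by name, for their known part in cardiac hypertrophy, as the entries of the count table for 10 genes: Gata4, Mef2a, Mef2c, Mef2d, Tbx5, Nkx2-5, Hand2, Srf, Tead1 and Myocd. They are 10 of 21872 genes in the table, of which 21859 are encoded in the nucleus. All 10 passed the filter on low counts and were tested. All cells came from mice that the labels give as C57BL/6N (C57BL/6 background in the study's methods), males aged 8 weeks, 2 weeks after transverse aortic constriction (TAC), which tightens the aorta so that the left ventricle pumps against a higher pressure. The groups were wild type (WT), mice given anti-CD8 antibody repeatedly from the day of the operation (CD8-depleted), and mice without the CD3e chain of the T cell receptor complex (CD3e-/-), which therefore lack mature T cells. TAC was common to all 3 groups, and sham-operated hearts are not analysed here. Each group held 2 numbered sets of cells, so n = 2, except where a set was left out. The methods describe cells from a pair of mice, but the labels tie no set number to a mouse, so the spread between sets may be technical. Rod-shaped cells were picked by pipette and accepted on a PCR signal of Tnnt2, so damaged cells and cells with little Tnnt2 were not sampled.

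These factors bind the control regions of the same cardiac genes and many of them bind each other. GATA4, NKX2-5 and TBX5 act together on genes such as Nppa, SRF recruits its coactivator myocardin (Myocd) to CArG boxes, and MEF2 proteins are held silent by class IIa histone deacetylases until calcium-dependent kinases release them. TEAD1 needs the coactivators YAP1 or TAZ (Wwtr1), and HAND2 pairs with E proteins on E-boxes. In the mouse heart GATA4, MEF2D and SRF are known to be needed for a normal hypertrophic response to load. Much of this control acts on the proteins, by phosphorylation or transport into the nucleus, and is not measured by RNA.

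Promoter windows are shown for 4 members. SRF and GATA4 are themselves members, and their motifs can be looked for in the promoters of members. Mef2a and Mef2c were picked after seeing the values, because their ratio lay lower in every CD8-depleted and CD3e-/- set than in both WT sets. That difference was not tested. RefSeq (GRCm38.p6) gave a window of 250 bases before the transcript start for 6 of the 10 members, with 3 windows for Mef2c. The Srf window (chr17:46556163-46556412, minus strand) held 2 CArG boxes, the SRF site, starting 82 and 62 bases before the transcript start, and a TATAAA box on the reverse strand starting 38 bases before it. The Hand2 window (chr8:57320733-57320982, plus strand) held 1 GATA motif, AGATAA on the reverse strand, starting 172 bases before the start. The first Mef2c window (chr13:83503784-83504033, plus strand) held 1 TEAD motif, GGAATG, starting 75 bases before the start and TATAAA on the reverse strand at 107 bases. The Mef2a window (chr7:67372859-67373108, minus strand) held none of the motifs searched. Capitals mark these motifs.
Srf: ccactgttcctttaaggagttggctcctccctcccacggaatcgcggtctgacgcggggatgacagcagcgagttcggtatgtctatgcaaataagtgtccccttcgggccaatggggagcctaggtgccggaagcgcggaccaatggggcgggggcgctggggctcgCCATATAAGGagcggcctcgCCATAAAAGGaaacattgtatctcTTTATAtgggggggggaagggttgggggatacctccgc
Hand2: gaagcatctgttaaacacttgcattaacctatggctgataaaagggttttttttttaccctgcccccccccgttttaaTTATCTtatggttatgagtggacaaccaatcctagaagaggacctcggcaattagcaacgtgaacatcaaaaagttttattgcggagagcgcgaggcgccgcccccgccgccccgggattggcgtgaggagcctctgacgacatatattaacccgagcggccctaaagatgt
Mef2c: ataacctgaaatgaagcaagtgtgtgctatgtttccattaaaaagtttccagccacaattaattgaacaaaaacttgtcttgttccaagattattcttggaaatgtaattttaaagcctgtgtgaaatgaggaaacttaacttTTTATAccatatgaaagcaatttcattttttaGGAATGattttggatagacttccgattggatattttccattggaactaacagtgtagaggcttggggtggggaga
Mef2a: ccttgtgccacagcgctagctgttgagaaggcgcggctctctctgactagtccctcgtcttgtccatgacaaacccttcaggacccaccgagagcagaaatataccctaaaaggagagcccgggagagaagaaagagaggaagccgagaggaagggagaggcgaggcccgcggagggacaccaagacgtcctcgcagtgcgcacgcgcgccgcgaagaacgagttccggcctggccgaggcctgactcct

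Both strands were searched for AGATAA (the motif of GATA factors), GGAATG (of TEAD factors), TNAAGTG (of NKX2-5), AGGTGTGA (of T-box factors), TATAAA (the TATA box) and CANNTG (the E-box), and for the consensus MEF2 site and CArG box. Over the 32851 mouse promoter windows of the same length, 1.47% held a CArG box, 9.99% the GATA motif, 12.6% the TEAD motif, 12.4% TATAAA, 10.1% the NKX2-5 motif, 1.12% the T-box motif and 0.508% a MEF2 site. E-boxes were in 66.2% of windows and are not capitalised; the Hand2 window held 2, starting 246 and 235 bases before the start. The capitalised motifs did not overlap each other. The windows of Mef2d and Nkx2-5 and the third Mef2c window, not shown, held none of the motifs searched except E-boxes. The second Mef2c window, also not shown, held only TATAAA on the reverse strand, starting 22 bases before the start. A match describes letters and does not show that a factor binds there.

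The sets differed in depth and quality. Cd3e, the gene targeted in CD3e-/- mice, belongs to T cells. It was read 0 times in WT, 1 and 2 times in CD8-depleted and in CD3e-/- 4 and 37 times, so it was no lower in the cells labelled CD3e-/-. A heart muscle cell does not make it, and the sources used here do not say which part of the gene was removed, so these counts do not check the labels. After cells with fewer than 3000 detected genes and 1 pair of cells with identical counts were left out, 320 of 375 cells remained, with 59 and 62 cells in sets 1 and 2 of WT, 62 and 49 in those of CD8-depleted, and 11 and 77 in those of CD3e-/-. Nuclear genes received between 5469742 and 24057660 counts in 5 sets and 604652 in CD3e-/- set 1. The median cell had 413073 and 242696 nuclear counts in WT, 96256 and 98953 in CD8-depleted, and 40699 and 223873 in CD3e-/-. Mitochondrially encoded transcripts took a median of 77.3% and 85.3% of a cell's counts in the WT sets, against 90.8% to 94.1% in the other 4 sets. CD3e-/- set 1 kept 35.5% of its cells, held 13206 CPM of olfactory and vomeronasal receptor transcripts (53.8 to 222 CPM elsewhere) and 59322 CPM of 8 cardiomyocyte markers (131048 to 189149 CPM elsewhere). The fold changes the results turn on are therefore given over all 6 sets and over the 5 sets without it, and others over 6 sets where not stated. Over those 5 sets CD3e-/- is set 2 alone, and its tests borrow the spread of WT and CD8-depleted. Levels are in CPM, a gene's counts after the nuclear counts of every set are brought to an equal sum, and 2 sets against 2 cannot reach an exact two-sided permutation p below 0.333.

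Per exon length, Myocd had the highest mean level of the factors, though Hand2 lay above it in CD8-depleted set 2. On the TPM scale, which divides counts by the exon length of a gene, the level of Myocd averaged 65.3 over 5 sets, with a range of 44.6 to 101 TPM. Nkx2-5 followed at a mean level of 40.2 TPM (28.5 to 44.997), then Hand2 at 35.4 (20.9 to 55.7), Gata4 at 30.7 (15.98 to 56.7), Srf at 26.6 (17.1 to 38.5) and Mef2d at 24.3 (16.03 to 31.6). Tead1 averaged 18.1 TPM (9.67 to 29.001), Mef2a 15.2 (8.28 to 27.8), Mef2c 12.9 (7.53 to 17.4) and Tbx5 6.30 (4.01 to 9.03). Every pair of neighbours in this order overlapped in range across sets. The lowest set of Myocd lay above the highest set of Srf, Mef2d, Tead1, Mef2a, Mef2c and Tbx5. Compared within the same set, Myocd also lay above Nkx2-5 and Gata4 in every set, by as little as 1.03 times for Nkx2-5 in CD8-depleted set 2. In each of the 5 sets the members lay above 71.02% to 95.7% of nuclear genes by TPM. Tbx5, a T-box factor known for its part in the atria and the conduction system, was the lowest of the 10 by mean level.

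**Figure D1:**
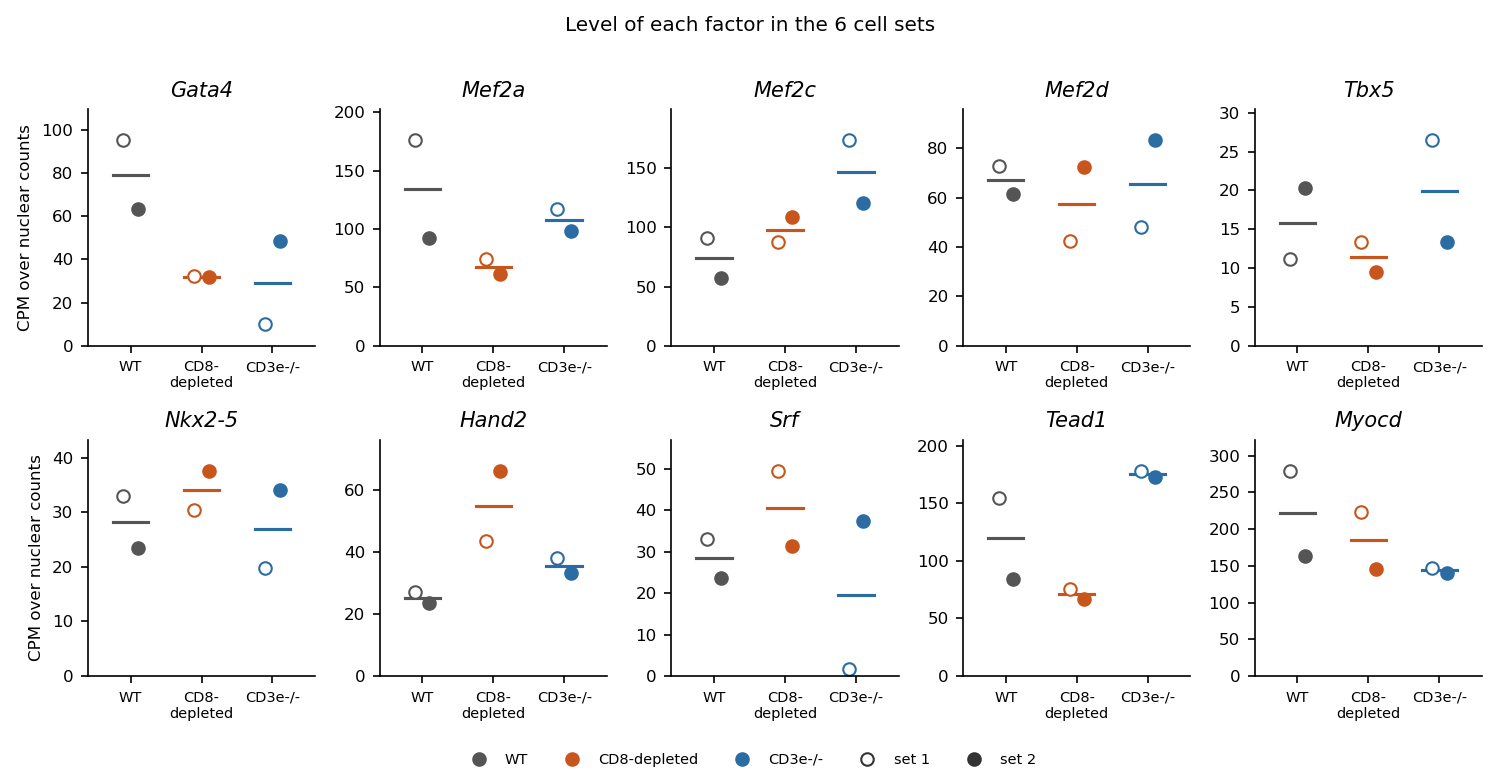
Level of each factor in CPM over nuclear counts (vertical axis, starting at 0) in the WT, CD8-depleted and CD3e-/- groups; open circles are set 1, filled circles set 2 and bars the mean of 2 sets. In CD8-depleted, Gata4 is at 32.2 and 31.6 CPM, below both WT sets, and Hand2 at 43.7 and 66.4 CPM, above both.

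The comparison of CD8-depleted with WT hearts asks what the loss of CD8+ T cells does to these factors in the loaded cardiomyocyte. Gata4 lay lower in both CD8-depleted sets, and Hand2 lay higher. Mef2a and Tead1 also lay lower in both sets, Mef2c was near the upper WT set, and the other 5 factors overlapped between the groups. None of these differences passed the test: edgeR's quasi-likelihood test called 0 of the 10 members and 0 of 12936 genes (0% of all genes) at an adjusted p under 0.05 over 6 sets. Over 5 sets it called 0 members and 32 of 13374 genes (0.239%).

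Gata4, a zinc finger factor that activates Nppa, Nppb and contractile genes, lies on chromosome 14 (63198922 to 63271692, minus strand, mm10). It had 95.3 and 63.4 CPM in WT and 32.2 and 31.6 CPM in CD8-depleted. The groups did not overlap, and the lower WT set was about as far above the CD8-depleted sets as the 2 WT sets were from each other. The mean level in CD8-depleted was 31.9 ± 0.394 CPM (SD, n = 2) against 79.3 ± 22.5 CPM in WT, a ratio of 0.402, while the higher WT set was 1.503 times the lower. The edgeR log2 fold change was -1.28 (SE 0.86, adjusted p = 1) over 6 sets and -1.30 (SE 0.43, unadjusted p = 0.0046, adjusted p = 0.236) over 5. Its sign was the same under all 17 alternatives, from -2.13 with cells weighted alike to -1.10 with cells thinned to equal depth.

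Hand2, a basic helix-loop-helix factor that shapes the embryonic right ventricle in the mouse, lies on chromosome 8 (57320983 to 57324633, plus strand). It had 27.1 and 23.6 CPM in WT and 43.7 and 66.4 CPM in CD8-depleted. Both CD8-depleted sets lay above both WT sets. In CPM the gap between the groups was wider than that between the WT sets but narrower than that between the CD8-depleted sets. Its log2 fold change was 1.12 (SE 0.64, adjusted p = 1) over 6 sets and 1.10 (SE 0.46, unadjusted p = 0.023, adjusted p = 0.398) over 5, and lay between 0.84 and 1.33 under the 17 alternatives. CD8-depleted cells were also shallower and richer in mitochondrial transcripts than WT cells, and within sets the correlation with mitochondrial share averaged -0.085 for Gata4 and 0.088 for Hand2. The part of depth and mitochondrial share in the differences between groups was not tested. Without cells of high fibroblast marker level (500 CPM or more) Gata4 stood at -1.33 and Hand2 at 1.20.

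Mef2a, a MADS-box factor of the adult heart on chromosome 7 (67231163 to 67372858, minus strand), had 176 and 92.6 CPM in WT and 73.9 and 61.6 CPM in CD8-depleted. Tead1, which carries the TEA domain and binds the M-CAT element of contractile genes, lies on chromosome 7 (112679318 to 112906807, plus strand) and had 155 and 84.6 CPM in WT and 75.8 and 66.5 CPM in CD8-depleted. For both genes WT set 2 lay close above the CD8-depleted sets in CPM and WT set 1 far above them. Without WT set 1 the fitted change shrank but kept its sign. The log2 fold change of Mef2a was -0.93 (SE 0.69, adjusted p = 1) over 6 sets and -0.95 (SE 0.39, adjusted p = 0.372) over 5, and -0.64 without WT set 1. That of Tead1 was -0.70 (SE 0.70, adjusted p = 1) over 6 sets and -0.72 (SE 0.38, adjusted p = 0.542) over 5, and -0.44 without WT set 1. In Mef2a, 302 exon bases overlap those of Lysmd4 on the opposite strand, and Smart-seq2 reads do not tell the strands apart there.

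The other 6 factors gave log2 fold changes of -0.50 to 0.55 over 6 sets and -0.53 to 0.52 over 5. Mef2c, needed for heart looping in the mouse embryo, had 90.9 and 56.8 CPM in WT and 87.3 and 109 CPM in CD8-depleted. Mef2d, whose loss blunts the hypertrophic response of mouse heart, had 72.9 and 61.5 CPM against 42.7 and 72.6 CPM. Myocd had 279.6 and 163 CPM against 224 and 145 CPM. In each of the 3 the groups overlapped. Srf had 33.1 and 23.8 CPM in WT and 49.6 and 31.4 CPM in CD8-depleted. The homeodomain factor Nkx2-5 had 33.1 and 23.5 CPM against 30.5 and 37.7 CPM. Tbx5 had 11.2 and 20.3 CPM against 13.3 and 9.51 CPM. Here too the sets of the groups interleaved.

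Between CD8-depleted and WT, 1 of 10 members lay higher in both sets than in both WT sets, against 21% of all genes tested, and 3 of 10 lay lower, against 19.8%. These shares are near the background. At an unadjusted p under 0.05, 0 of 10 members passed over 6 sets (2.64% of all genes), and 3 of 10 over 5 sets (9.94%), namely Gata4, Mef2a and Hand2. DESeq2 called 0 members and 8 genes (0.0685%), and limma-trend with cells weighted alike called 0 members and 0 genes. Without CD3e-/- set 2 edgeR called 0 members and 47 genes (0.34%). WT set 1 lay above WT set 2 in 9 of 10 members, all but Tbx5, against 62.6% of all genes.

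**Figure D2:**
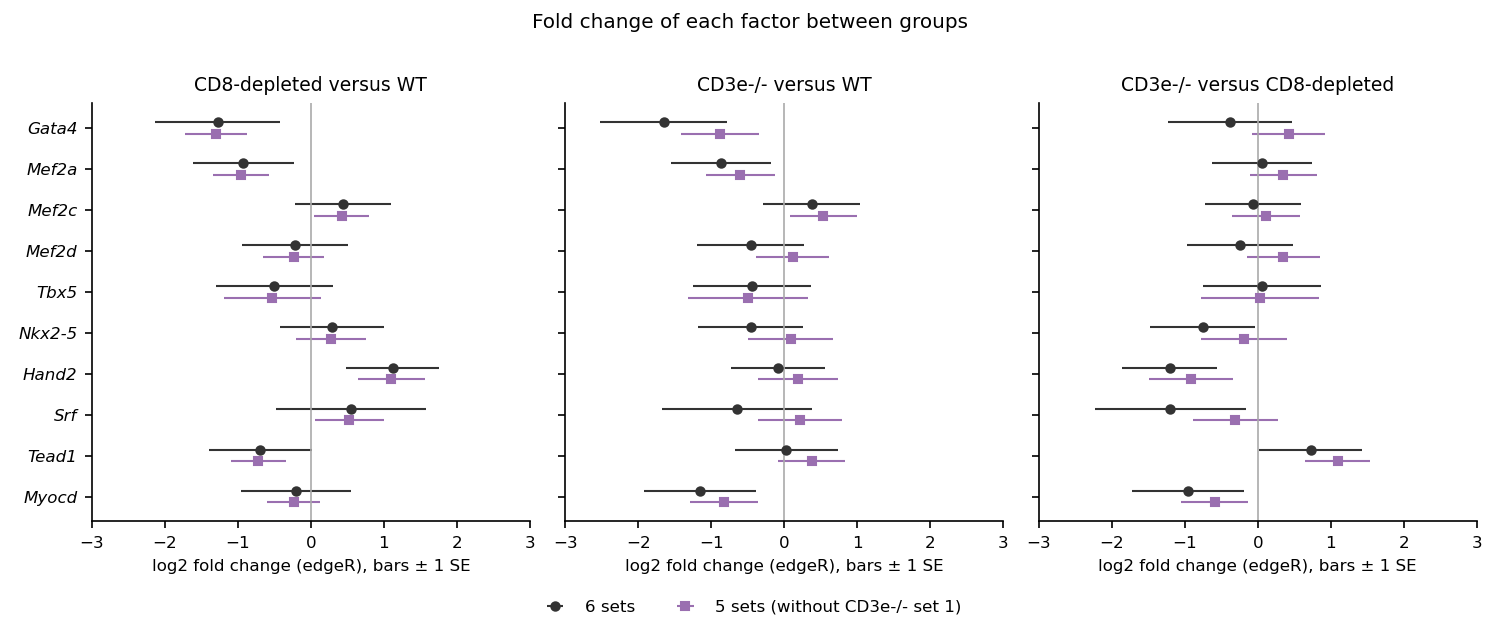
Log2 fold change of each factor by edgeR in the 3 comparisons (horizontal axis, bars ± 1 SE), over 6 sets (circles) and over 5 sets without CD3e-/- set 1 (squares). None of the 60 values passed an adjusted p of 0.05; the smallest adjusted p, 0.236, is that of Gata4 for CD8-depleted versus WT over 5 sets.

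A ratio between 2 factors within a set does not depend on how the set was scaled. Per exon length, Gata4 stood at 2.12 and 1.62 times Hand2 in the WT sets, at 0.44 and 0.29 times in CD8-depleted and at 0.16 and 0.88 times in CD3e-/-. Gata4 thus lay above Hand2 in both WT sets and below it in all 4 others. Mef2a and Mef2c, both MEF2 genes, also changed order, while Mef2d lay above Mef2c in all 5 sets other than CD3e-/- set 1. Mef2a stood at 2.07 and 1.74 times Mef2c in WT, at 0.91 and 0.61 times in CD8-depleted and at 0.72 and 0.88 times in CD3e-/-. With every cell thinned to the same depth these ratios were 2.03 and 1.80 in WT, 0.95 and 0.61 in CD8-depleted and 0.83 in CD3e-/- set 2. Myocd stood at 3.78 and 2.53 times Hand2 in WT, at 1.87 and 0.80 times in CD8-depleted and at 1.42 and 1.55 times in CD3e-/-. Tead1 stood at 1.97 and 1.72 times Mef2c in WT, at 1.01 and 0.71 times in CD8-depleted and at 1.19 and 1.67 times in CD3e-/-, where set 2 was close to WT.

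Of the 45 pairs of factors, 30 had both CD8-depleted ratios on the same side of both WT ratios. Among genes tested with a count in every set, 40.5% of pairs did. For 15 pairs of factors all 4 ratios of CD8-depleted and CD3e-/- lay on the same side, against 18% of pairs among those genes. The pairs share genes and sets, so these counts carry no test. Of the 15 pairs, 6 contain Gata4 and 6 contain Mef2c.

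**Figure D3:**
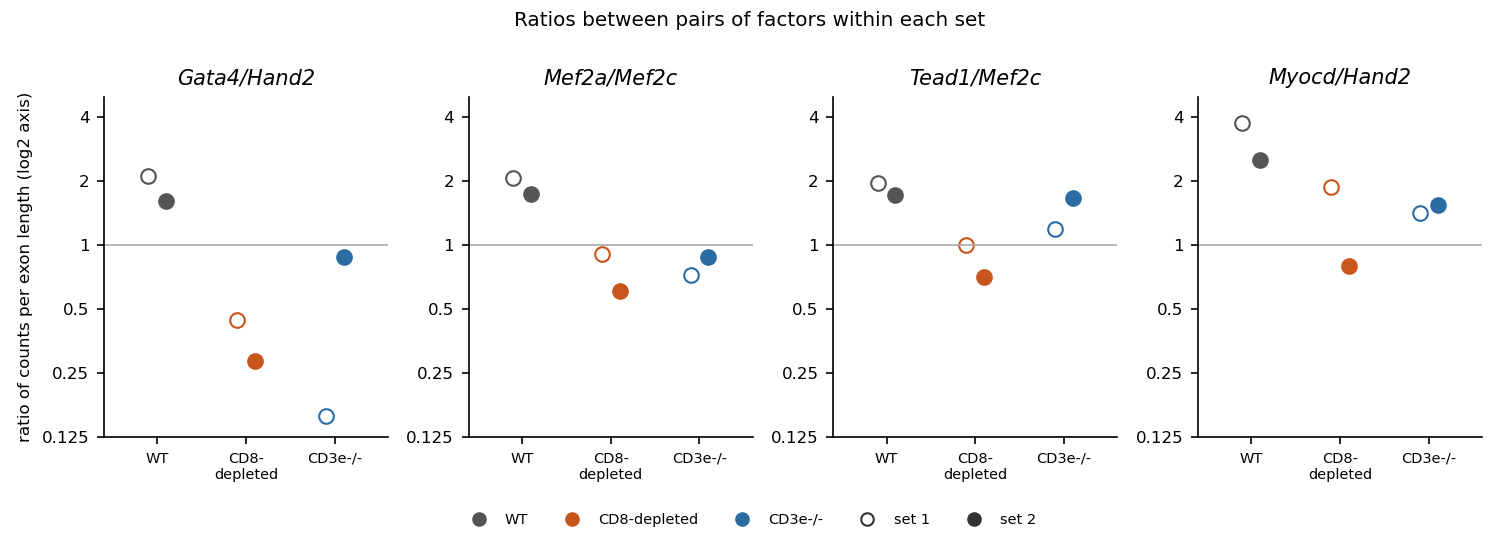
Ratio of counts per exon length between 2 factors within each set (vertical axis, log2 scale, line at 1) for Gata4/Hand2, Mef2a/Mef2c, Tead1/Mef2c and Myocd/Hand2; open circles are set 1 and filled circles set 2. Gata4/Hand2 is at 2.12 and 1.62 in WT and at 0.88 or lower in the other 4 sets.

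The comparison of CD3e-/- with WT hearts asks the same of the loss of all T cells, and it hangs on CD3e-/- set 1. That set gave 6 counts of Gata4, 1 count of Srf and 12 of Nkx2-5, and its TMM factor of 1.94 lowers every fitted value of that set relative to CPM. Without TMM factors the median log2 fold change of all genes moved from 0.01 to 0.68 in this comparison and from 0.07 to 0.73 against CD8-depleted. Directions are therefore given from both scales.

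Gata4 had 9.92 and 48.7 CPM in the CD3e-/- sets, below both WT sets (95.3 and 63.4 CPM). The log2 fold change of Gata4 was -1.66 (SE 0.87, adjusted p = 0.651) over 6 sets and -0.88 (SE 0.53, adjusted p = 1) over 5, and negative under all 17 alternatives. Myocd, the SRF coactivator restricted to cardiac and smooth muscle, had 147 and 140.1 CPM in CD3e-/-, below both WT sets (279.6 and 163 CPM). Its log2 fold change was -1.16 (SE 0.77, adjusted p = 0.761) over 6 sets and -0.82 (SE 0.46, adjusted p = 1) over 5, but 0.26 when cells with few detected genes were kept.

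Mef2c had 174 and 120.3 CPM in the CD3e-/- sets, above both WT sets (90.9 and 56.8 CPM). Mef2c gave a log2 fold change of 0.38 (SE 0.66, adjusted p = 0.871) over 6 sets and 0.53 (SE 0.46, adjusted p = 1) over 5. Tead1 had 179 and 173 CPM, both above WT (155 and 84.6 CPM), yet its log2 fold change was 0.03 (SE 0.70) over 6 sets and 0.37 (SE 0.45) over 5. Hand2 had 38.04 and 33.2 CPM, both above WT (27.1 and 23.6 CPM), while its log2 fold change was -0.09 (SE 0.64) over 6 sets, 0.19 (SE 0.55) over 5 and 0.53 without TMM factors. The direction of Hand2 thus turned with the scaling and with CD3e-/- set 1, and that of Tead1 was negative in 7 of the 17 alternatives, among them the fit with no low-count filter (-0.043).

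The other 5 members overlapped with WT. Mef2a had 117 and 98.7 CPM, Mef2d 47.96 and 83.3 CPM and Tbx5 26.5 and 13.3 CPM in the CD3e-/- sets. Nkx2-5 had 19.8 and 34.04 CPM and Srf 1.65 and 37.4 CPM. Their log2 fold changes lay between -0.87 and -0.45 over 6 sets and between -0.60 and 0.21 over 5. In CD3e-/- set 2 alone, Srf, Nkx2-5 and Mef2d lay above the higher WT set.

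Set against WT over 6 sets, edgeR called 0 of 10 members and 0 of 12936 genes in CD3e-/- (0%), and 0 members and 17 of 13374 genes over 5 (0.127%, with 0.0523% higher and 0.0748% lower). At an unadjusted p under 0.05, 0 members passed over 6 sets (8.28% of all genes) and 0 over 5 (2.46%). DESeq2 called 0 members and 611 genes (4.72%), and limma-trend 0 and 0. Without CD3e-/- set 2, the fit in which set 1 stands alone for its group called 5 members, Gata4, Srf, Myocd, Mef2d and Mef2a, all lower, among 4588 of 13837 genes (33.2%). That fit takes for the lone set the spread seen in WT and CD8-depleted, as the fit over 5 sets does for CD3e-/- set 2. In CPM, 3 of 10 members lay higher in both CD3e-/- sets than in both WT sets (28% of all genes) and 2 lay lower (8.7%). Over the 4 sets of CD8-depleted and CD3e-/- together, Hand2 alone lay above both WT sets in every set (11.8% of all genes) and Gata4 alone below (4.91%). Without CD3e-/- set 1 the same holds for Hand2 (15.1%) and Gata4 (8.29%). Both comparisons share the WT sets.

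CD3e-/- was set against CD8-depleted to see whether the groups without T cells and without CD8+ T cells differ. Tead1 lay higher in both CD3e-/- sets and Hand2 lay lower. Tead1 had 179 and 173 CPM in CD3e-/- against 75.8 and 66.5 CPM in CD8-depleted, and the groups stood further apart than the sets of either group. The log2 fold change of Tead1 was 0.72 (SE 0.71, adjusted p = 0.942) over 6 sets and 1.09 (SE 0.45, unadjusted p = 0.020, adjusted p = 1) over 5, and positive under all 17 alternatives. Hand2 had 38.04 and 33.2 CPM against 43.7 and 66.4 CPM, with a log2 fold change of -1.21 (SE 0.65, adjusted p = 0.942) over 6 sets and -0.91 (SE 0.58, adjusted p = 1) over 5, and negative under all 17 alternatives.

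Mef2a and Mef2c also lay higher in both CD3e-/- sets in CPM. Their fitted log2 fold changes were 0.06 (SE 0.69) and -0.07 (SE 0.66) over 6 sets and 0.35 (SE 0.46) and 0.11 (SE 0.46) over 5. The sign of Mef2c turned between the fits. Srf had a log2 fold change of -1.20 (SE 1.04) over 6 sets, which rests on the 1 count in CD3e-/- set 1, and -0.31 (SE 0.58) without that set. Gata4 gave -0.38 (SE 0.85) over 6 sets and 0.42 (SE 0.51) over 5, on opposite sides of 0.

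Here edgeR called 0 of 10 members and 0 of 12936 genes over 6 sets (0%), and 0 members and 2 of 13374 genes over 5 (0.015%, with 0.00748% higher and 0.00748% lower). At an unadjusted p under 0.05, 0 members passed over 6 sets (3.9% of all genes) and 1, Tead1, over 5 (3.16%). DESeq2 called 0 members and 15 genes (0.131%), and limma-trend 0 and 0. Without CD3e-/- set 2, 4 members were called lower, Srf, Gata4, Myocd and Hand2, among 3472 genes (25.1%). In CPM, 3 members lay higher in both CD3e-/- sets (26.4% of all genes) and 1 lower (7.91%).

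The share of cells with a count shows how widely each factor was found. To compare sets, each cell was thinned to 50000 nuclear counts, which left 59 and 62 WT, 57 and 46 CD8-depleted and 4 and 75 CD3e-/- cells, so CD3e-/- set 1 is left out below. Intervals are exact 95% binomial intervals (Clopper-Pearson) and cover counting error only, since the reads carry no molecular identifiers and cells of a set share their source. Gata4 was found in 86.4% (75.02% to 93.96%) and 59.7% (46.4% to 71.9%) of WT cells, in 47.4% (33.98% to 61.03%) and 43.5% (28.9% to 58.9%) of CD8-depleted cells and in 68% (56.2% to 78.3%) of cells of CD3e-/- set 2. Before thinning the Gata4 shares were 94.9% and 85.5%, 56.5% and 59.2%, and 84.4%. WT set 2 and the CD8-depleted sets overlapped in their intervals, while the interval of WT set 1 lay above those of WT set 2 and both CD8-depleted sets. Hand2 was found in 67.8% and 51.6% of WT cells, 82.5% and 80.4% of CD8-depleted cells and 70.7% of CD3e-/- cells, and before thinning in 89.8%, 87.1%, 90.3%, 89.8% and 84.4%. After thinning, the Hand2 interval of WT set 1 (54.4% to 79.4%) overlapped those of both CD8-depleted sets. That of WT set 2 (38.6% to 64.5%) lay below them. The unthinned Hand2 shares were nearly level, while the CD8-depleted cells had fewer counts each.

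Myocd was found in 90.3% to 98.2% of thinned cells by set, Tead1 in 78.3% to 100% and Mef2a in 78.3% to 96.6%. Tead1 was found in all 75 thinned cells of CD3e-/- set 2, against 84.2% and 78.3% in CD8-depleted. Mef2c ranged from 70.97% in WT set 2 to 94.7% in CD3e-/- set 2. Mef2d ranged from 64.9% to 81.3% and Nkx2-5 from 54.8% to 72.9%. Srf was found in 43.5% to 57.9% of cells. Tbx5 was found in 15.2% to 38.7%, with the lowest share in CD8-depleted set 2, and up to 32.7% of its counts in a set came from 1 cell.

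**Figure D4:**
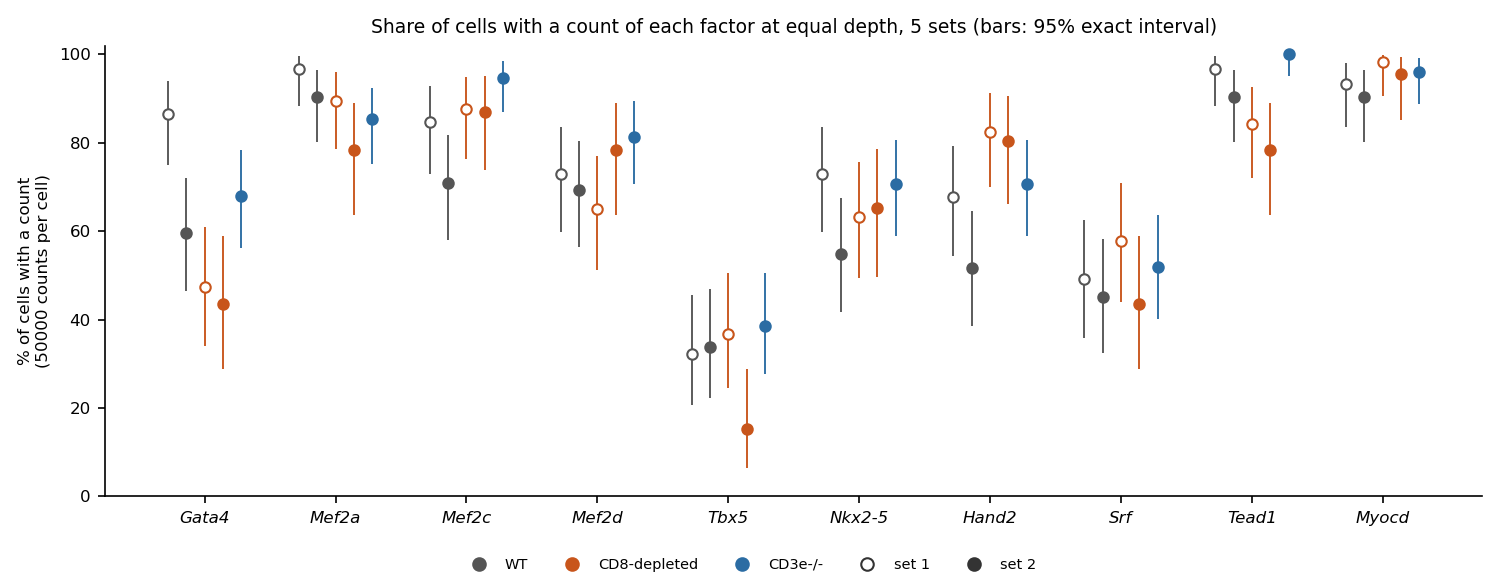
Percent of cells with a count of each factor after thinning every cell to 50000 nuclear counts (vertical axis), in the 5 sets with 46 to 75 such cells; circles are shares and bars exact 95% binomial intervals. Gata4 is at 47.4% and 43.5% in the CD8-depleted sets and at 86.4% and 59.7% in WT, and Hand2 at 82.5% and 80.4% against 67.8% and 51.6%.

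Single cells varied widely around these levels. In WT set 1 the median cell had 81.5 CPM of Gata4, with the middle 50% of cells between 38.04 and 156 CPM and the highest at 531 CPM. The median Gata4 level was 25.5 CPM in WT set 2, 16.3 and 8.94 CPM in CD8-depleted and 30.2 CPM in CD3e-/- set 2. The median WT set 2 cell thus stood closer to CD8-depleted than to WT set 1. Of the Gata4 counts, 26.04% in WT set 2 and 23.1% in CD8-depleted set 2 came from 1 cell. Hand2 medians were 19.3 and 18.05 CPM in WT, 42.8 and 54.4 CPM in CD8-depleted and 27.0 CPM in CD3e-/- set 2. Tead1 medians were 150 and 75.1 CPM in WT, 42.3 and 53.9 CPM in CD8-depleted and 161 CPM in CD3e-/- set 2. For Hand2 the highest cell held 5.39% to 10.7% of its counts in these 5 sets. For Tead1 the highest cell held 21.9% of the counts of CD8-depleted set 1.

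**Figure D5:**
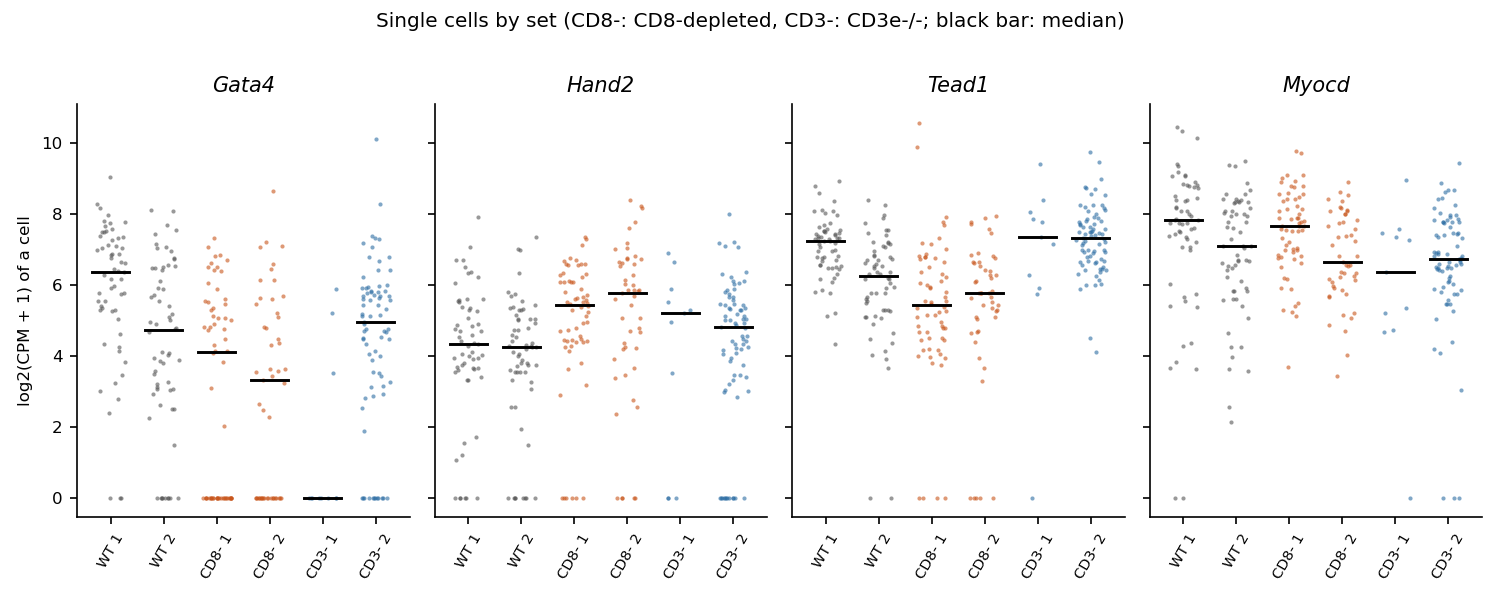
Level of Gata4, Hand2, Tead1 and Myocd in each of the 320 cells as log2(CPM + 1) (vertical axis), by set; points are cells and black bars medians. The Gata4 medians are at 81.5 and 25.5 CPM in WT and 16.3 and 8.94 CPM in CD8-depleted, and cells without a Gata4 count sit at 0.

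The factors were found side by side in most cells. The median cell had counts of 9 of the 10 factors in both WT sets and in CD3e-/- set 2, of 8 in both CD8-depleted sets and of 7 in CD3e-/- set 1. At 50000 counts per cell the medians were 8 and 6.5 in WT, 7 and 7 in CD8-depleted and 8 in CD3e-/- set 2. Summed over the 10 genes, the factors took 974 and 613 CPM in WT, 673 and 631 CPM in CD8-depleted and 761 and 782 CPM in CD3e-/-.

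Across the thinned cells of a set, the factors were weakly correlated with each other. Over the 45 pairs, the Spearman correlation averaged over 5 sets ran from -0.11 (Mef2a and Srf) to 0.18 (Hand2 and Myocd), given as a description because cells of a set share libraries and depth. For 3 pairs, all of which contain Hand2, it was positive in every set, and for Nkx2-5 and Srf it was negative in every set (-0.13 to -0.011). These are picked from 45 pairs, and the share among pairs of other genes was not taken. The correlation of a member with a cell's depth before thinning averaged between -0.07 and 0.11, with its fibroblast marker level between -0.09 and 0.05, and with its mitochondrial share between -0.085 (Gata4) and 0.088 (Hand2). The 2992 genes with a count in at least 50% of all 303 thinned cells were compared over the 299 cells of the 5 sets. Those most alike to Myocd were Socs2, Ehd4 and Clasp1 (mean correlation 0.25, 0.25 and 0.24). Those most alike to Tead1 were Ldha, Hspb8 and Ctdsp1 (0.25, 0.24 and 0.24), and to Mef2c Tob2, Luc7l2 and Plpp3 (0.23, 0.22 and 0.21). All of these are weak.

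The members were set beside their relatives per exon length. Gata6, the closest relative of Gata4 in heart, stood at 23.3 and 22.4 TPM in WT, 19.8 and 16.1 TPM in CD8-depleted and 7.17 and 20.8 TPM in CD3e-/-. Gata4 lay above Gata6 in both WT sets (56.7 and 33.8 TPM), while in CD8-depleted the levels were alike (18.5 and 15.98 TPM for Gata4). Tead2, Tead3 and Tead4 were each at 2.48 TPM or less in the 5 sets, far below Tead1. Mef2b had 0 counts in WT and CD8-depleted and 5 and 22 counts in the CD3e-/- sets. Hand1, the relative of Hand2 known from the embryonic left ventricle, had 0 of 82006424 nuclear counts, which allows a level of up to 0.0366 CPM. The other SRF coactivators lay below Myocd, with Mrtfb at 4.18 to 8.31 TPM and Mrtfa at 0.748 to 4.22 TPM in the 5 sets.

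Of 26 paralogs and partner factors, 23 were tested over 6 sets. For CD8-depleted versus WT 14 lay higher and 9 lower, with a median log2 fold change of 0.15 (0.02 over all genes), and 0 passed. The smallest p-values were those of Tbx18 (-3.60, SE 1.82), Tbx20 (-1.23, SE 0.65) and Nfatc4 (4.04, SE 2.80). Tbx20 is a T-box repressor and activator that keeps adult mouse cardiomyocytes functional. It had 86.7 and 49.5 CPM in WT and 33.8 and 22.1 CPM in CD8-depleted. Tbx20 thus lay lower in both sets, as Gata4 and 19.8% of all genes tested did. For CD3e-/- against WT the counts were 14 and 9, with a median of 0.45 (0.01 over all genes), and against CD8-depleted 13 and 10, with a median of 0.32 (0.07 over all genes). The smallest p-values in both were those of Foxk1, Tbx2 and Mef2b. Foxk1 had 175 CPM and Tbx2 149 CPM in CD3e-/- set 1 and at most 4.82 and 3.11 CPM in any other set. Without that set the medians were -0.06 and -0.20.

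The 29 regulators that carry stress signals to these factors were all tested. For CD8-depleted versus WT 9 lay higher and 20 lower, with a median log2 fold change of -0.29. Over all genes 50.8% lay higher, with a median of 0.02. Of the regulators 0 passed over 6 or 5 sets, where 0% and 0.239% of all genes did. Ppp3cb, a catalytic subunit of calcineurin, the calcium-dependent phosphatase of the NFAT pathway, had 78.8 and 32.8 CPM in WT and 15.3 and 14.4 CPM in CD8-depleted. Its log2 fold change was -1.83 (SE 0.66, adjusted p = 1) over 6 sets and -1.86 (SE 0.49, adjusted p = 0.107) over 5. Klf15, a repressor of hypertrophic genes that binds to MEF2 and to myocardin partners in mouse, had 26.3 and 29.6 CPM in WT and 7.72 and 8.23 CPM in CD8-depleted. Its log2 fold change was -1.83 (SE 0.85, adjusted p = 1) over 6 sets and -1.85 (SE 0.60, adjusted p = 0.226) over 5. Both lay lower in both CD8-depleted sets, as did 19.8% of all genes tested, and neither passed the test.

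Of the regulators, 12 lay higher and 17 lower in CD3e-/- than in WT (median -0.24), and against CD8-depleted 15 and 14 (median 0.01), with 0 passing. Over all genes 50.2% lay higher against WT (median 0.01) and 52.6% against CD8-depleted (median 0.07). The class IIa deacetylases Hdac9 and Hdac7, which silence MEF2, had 222 and 164 CPM in CD3e-/- set 1. In the other 5 sets they stood at 2.68 to 12.0 CPM and 3.25 to 42.8 CPM, and their log2 fold changes against WT were 3.09 and 2.51 over 6 sets and 0.66 and -0.19 over 5. Klf15 had 8.27 and 21.03 CPM in CD3e-/- (-1.27, SE 0.84, and -0.63 over 5 sets). Against CD8-depleted, Ppp3cb stood at 108 and 45.5 CPM in CD3e-/-, a log2 fold change of 1.59 (SE 0.66, adjusted p = 0.942) over 6 sets and 1.42 over 5, and Hdac5 at 33.1 and 20.2 CPM (-1.14, SE 0.67, and -1.05 over 5).

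The known targets of the factors were all 29 tested. For CD8-depleted versus WT 21 lay higher and 8 lower (72.4% higher, median 0.37), against 50.8% higher and a median of 0.02 over all genes. The edgeR test called 0 over 6 sets (0% of all genes) and 2 over 5, Nppa and Myh7 (0.239% of all genes). Nppa, the natriuretic peptide gene that GATA4, NKX2-5 and TBX5 share as a target, had 279 and 342 CPM in WT, 2434 and 6047 CPM in CD8-depleted and 3923 and 6505 CPM in CD3e-/-. Over 5 sets it rose in CD8-depleted, with a log2 fold change of 3.72 (SE 0.46, adjusted p = 2e-05). In CD3e-/- set 2 alone, its log2 fold change against WT was 4.16 (SE 0.51). Myh7, the beta myosin heavy chain, had 170.5 and 429 CPM in WT, 1466 and 2414 CPM in CD8-depleted and 1462 and 1900 CPM in CD3e-/-. It rose over 5 sets in CD8-depleted by a log2 fold change of 2.59 (SE 0.45, adjusted p = 0.0020). In CD3e-/- set 2 alone, the log2 fold change of Myh7 against WT was 2.38 (SE 0.50). Over all 6 sets the adjusted p of Nppa was 0.554 against WT in CD3e-/- and 1 in CD8-depleted. In CPM, Gata4, one of their activators, lay lower than in WT in both groups. It did not pass over 6 sets or over 5 in either group. Both comparisons share the WT sets, and a link between the level of Gata4 and these targets was not tested. The atrial light chain Myl4 had 0.211 and 0.828 CPM in WT and 1.96 and 16.6 CPM in CD8-depleted (4.01, SE 1.60), and did not pass over 6 or 5 sets.

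Among the targets, 9 lay higher and 20 lower in CD3e-/- than in WT over 6 sets (median -0.55), and 13 and 16 over 5 sets (median -0.19). Of all genes 50.2% lay higher against WT over 6 sets and 46.4% over 5, and 52.6% and 48.9% against CD8-depleted. Against CD8-depleted the counts were 6 and 23 (median -0.74) over 6 sets and 11 and 18 (median -0.25) over 5, with 0 passing. The smallest p-values beside Nppa were those of Myl7 (-2.99, SE 1.42 against WT, and -2.44 over 5 sets), the atrial regulatory light chain, and Gja5 (5.04, SE 2.55, and 2.697 over 5 sets), a connexin of the conduction system. Nppb had 752 and 334 CPM in CD3e-/- against 778 and 916 CPM in CD8-depleted (-1.40, SE 0.89, and -1.53 over 5 sets). Gja5 rests on 16.5 CPM in CD3e-/- set 1 and stood at 0.914 CPM or less elsewhere.

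Transcripts of other cell types were present and differed between sets. In CD8-depleted set 2 and CD3e-/- set 1 the endothelial markers summed to more than the 10 factors did (631 and 761 CPM). The 11 fibroblast markers summed to 135 and 27.0 CPM in WT, 105 and 378 CPM in CD8-depleted and 564 and 242 CPM in CD3e-/-, with Pdgfra, which defines the type, at 0 to 0.183 CPM in WT and CD8-depleted. Of these, 9 of 11 lay higher in CD8-depleted than in WT (median log2 fold change 1.36 over 6 sets) and 11 of 11 in CD3e-/- (3.40). Over all genes 50.8% and 50.2% lay higher. Over 5 sets edgeR called Mfap5 (6.65, SE 0.75) and Lum (6.20, SE 1.07) higher in CD8-depleted and Mfap5 (6.09, SE 0.77) and Postn (5.09, SE 1.04) higher in CD3e-/-, all matrix genes of fibroblasts. The 9 endothelial markers summed to 385 and 349 CPM, 282 and 1208 CPM, and 1659 and 345 CPM, and the 9 mural markers to 219 to 417 CPM in 5 sets and 1222 CPM in CD3e-/- set 1. Leukocyte markers reached 8.42 to 28.9 CPM in 5 sets and 121 CPM in CD3e-/- set 1, and T cell markers at most 3.29 CPM and 61.2 CPM. Because GATA4, TBX20 and HAND2 are also made by cardiac fibroblasts, cells with 500 CPM or more of fibroblast markers were left out in a further fit, chosen after seeing the data. For CD8-depleted versus WT the log2 fold changes of Mef2a and Tead1 were then -0.997 and -0.66, beside the values of Gata4 and Hand2 given above, and 0 members were called.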

How the data were processed

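The study's cells were sequenced by Smart-seq2, 1 library a cell. The authors deposited 1 table of read counts per gene and cell. Per the labels, reads were trimmed with fastp 0.21.0, aligned to mm10 with STAR 2.7.5c and counted with featureCounts, whose version is not given in the sources used here; the study's methods name another aligner and an older build, so the labels were followed. Reads carry no molecular identifiers, so counts include PCR copies.

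Cells with at least 3000 detected genes were kept, counts were summed per set, 13 mitochondrially encoded genes were left out, and total counts per kept cell were 255214 to 6896166. Fits used edgeR 4.0.16 (filterByExpr, TMM, quasi-likelihood, 1 factor for group, adjustment by Benjamini-Hochberg over all genes, R 4.3.3), with a biological coefficient of variation of 0.818 over 6 sets and 0.626 over 5. The script was tested on simulated data. DESeq2 1.42.0, limma 3.58.1, other filters and scalings, thinning and leaving out each set were alternatives. The study's test over single cells was not used, because cells of a set are not replicates.

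Named were all members and, of each further list and comparison, genes called over 6 sets or otherwise up to 3 with the smallest p. Chosen after seeing the values were relatives of the members (Gata6, Tead2, Tead3, Tead4, Hand1, Mrtfa, Mrtfb) and the fibroblast genes named over 5 sets. The pairs of factors drawn as ratios were also taken from those that differed between groups. Of the regulators, 1 gene that the rule picks for CD8-depleted versus WT is not reported here. The members and lists were chosen with earlier results of these data known.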

Additional observations from a re-analysis of the deposited data

Results flagged for a closer look

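Tead1 is listed because in CPM its groups lay on opposite sides of WT in every set. Both CD8-depleted sets (75.8 and 66.5 CPM) were below both WT sets (155 and 84.6 CPM), and both CD3e-/- sets (179 and 173 CPM) were above them. The log2 fold change between CD3e-/- and CD8-depleted, which tests this difference itself, was 0.72 (SE 0.71, edgeR adjusted p = 0.942) and did not pass. With TMM factors, of which CD3e-/- set 1 has the highest (1.94), the fitted change of CD3e-/- against WT was 0.03 and ranged from -0.58 to 0.37 on leaving out 1 set at a time. No group had enough sets for a check on single sets that stand apart.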

How the results depend on the processing

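Members called remained at 0 in CD8-depleted versus WT under all 17 alternatives. Leaving out 1 set at a time gave 0 to 5 members called in CD3e-/- versus WT and 0 to 4 in CD3e-/- versus CD8-depleted, the calls coming only without CD3e-/- set 2. Of the alternative log2 fold changes of members in each comparison, 165, 142 and 142 kept their sign and call (CD8-depleted versus WT, CD3e-/- versus WT, CD3e-/- versus CD8-depleted), and 5, 23 and 24 turned sign. In CD8-depleted versus WT the sign turned with cells weighted alike for Nkx2-5 (-0.040) and Myocd (0.012). In CD3e-/- versus WT it turned without TMM factors for Mef2d (0.014), Tbx5 (0.36) and Hand2 (0.53), with cells weighted alike for Tbx5 (0.62) and Hand2 (0.10), with the highest cell of each gene left out for Tbx5 (0.020) and Hand2 (0.056), with all cells for Nkx2-5 (0.45) and Myocd (0.26), with DESeq2 (0.014) and thinned cells (0.21) for Hand2, and for Tead1 with no low-count filter (-0.043) or without fibroblast-marker cells (-0.048). In CD3e-/- versus CD8-depleted it turned with all cells for Mef2a (-0.039), Tbx5 (-0.11), Nkx2-5 (0.21) and Myocd (0.46), for Mef2c with DESeq2 (0.032), without TMM factors (0.63), thinned (0.32), weighted alike (0.60) and without the highest cell (0.20), for Mef2d without TMM factors (0.24), weighted alike (0.17) and without fibroblast-marker cells (0.17), and for Tbx5 with no low-count filter (-0.0080) and without fibroblast-marker cells (-0.32).

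Leaving out 1 set at a time, values that turned sign ranged as follows. In CD8-depleted versus WT, Mef2d ranged from -0.60 to 0.059, Tbx5 from -1.01 to 0.21 and Myocd from -0.63 to 0.10. In CD3e-/- versus WT, Mef2d ranged from -1.68 to 0.11, Tbx5 from -1.04 to 0.23, Nkx2-5 from -1.69 to 0.085, Hand2 from -0.61 to 0.19, Srf from -5.26 to 0.21 and Tead1 from -0.58 to 0.37. In CD3e-/- versus CD8-depleted, Gata4 ranged from -2.88 to 0.42, Mef2a from -0.41 to 0.35, Mef2c from -0.37 to 0.11, Mef2d from -1.45 to 0.35 and Tbx5 from -0.25 to 0.34. The cause of these shifts was not tested.

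Set numbers did not pair the groups: deviations of same-numbered sets correlated at -0.02, -0.006 and -0.17 across genes. With the number as a replicate block, 0 members were called in any comparison, and Gata4 stood at -1.29 and Hand2 at 1.09 in CD8-depleted versus WT. With the CD3e-/- numbers crossed, chosen after seeing the data, 0 members were called and Tead1 stood at -0.0083 against WT. Leaving out fibroblast-marker cells was also chosen after seeing the data. With 2 sets a group, of which CD3e-/- set 1 had 604652 nuclear counts, changes of the size of the spread between sets were not detectable.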
